A study of Mus musculus with 54 samples.

Results

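The comparison described here is that of the CIR-3 line with the CIR-1 line of Ba/F3-gp130 cells, across 19920 genes. Its members are the 12 arrays labelled CIR-3 or CIR-1, 6 of each line, of 27 arrays in the series. They were chosen by their labels, not by measured values. Ba/F3 cells are a mouse line of pro-B origin. The gp130 form used here needs Hyper-IL-6, in which interleukin-6 is joined to the soluble form of its receptor, for growth, and all lines of the series were grown with Hyper-IL-6. CIR stands for Cargo Internalization Receptor, a construct for tracking cells by magnetic resonance imaging of fluorine, and the stated purpose of the arrays was to look for background effects of these constructs. Both compared lines were transfected, one with the CIR-1 construct and the other with the CIR-3 construct, and each was measured in 2 states. Arrays numbered 1, 3 and 5 held unstimulated cells. Arrays numbered 2, 4 and 6 held cells kept for 1 h with 50 µl/ml of GFP-PFC, a perfluorocarbon emulsion whose name includes green fluorescent protein. Before that all cells were washed and kept for 3 h in serum-free medium, so starvation is shared by every array compared. The untransfected (parental) line and the CIR-2 line were measured in the same states. Their levels are given below, with a few differences from parental cells, and their arrays share in the estimate of the spread. The labels do not describe how the constructs differ, nor whether a line is 1 clone or a pool, so an effect of the construct and a difference between cell populations that carry it cannot be told apart. They also do not say whether arrays of 1 line came from separate cultures, so every p-value measures the spread between these arrays, which may be technical.

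Interleukin-6 family cytokines signal through gp130, which activates JAK kinases and the transcription factor STAT3, with SOCS proteins as feedback inhibitors. Ba/F3 cells are widely used as a host for transfected receptors because their growth depends on a cytokine signal. Haematopoietic cell lines can carry transcripts of several blood lineages at once, among them granule proteins, lectins and transcription factors such as GATA and RUNX members. Lines derived from a common parent by transfection and selection can differ from each other in genes unrelated to the construct.

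Signals are deposited log2 values, 1 probe set per gene, and differences are CIR-3 minus CIR-1 on the log2 scale, so a difference of 1 is a doubling. Array medians lay between 7.521 and 7.646 over the series. Signals below 6.283, the median of the lower quartiles of the arrays, cannot be taken as above background, so a fold against a mean below that level is a lower bound. Across genes, correlations between arrays of the same line ran from 0.9943 to 0.9986, and those between CIR-3 and CIR-1 arrays from 0.9936 to 0.9971. Of the defining pro-B genes, the B cell receptor chains Cd79a and Cd79b were bright, with medians of 10.12 and 10.12 in CIR-3. The transcription factor Pax5 (7.20) and the surrogate light chain genes Igll1 (7.43) and Vpreb1 (7.12) were modest in CIR-3. Ebf1 (5.94), Rag2 (5.16), Dntt (5.97) and Il7r (5.27) lay below the level of 6.283, and Rag1 (6.35) just above it. The pro-B label thus rests on some of its markers in these data. Among these genes only Cd79a passed the test between the lines, by 0.31 (SE 0.0687, adjusted p = 0.00919).

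The 2 lines differed in many genes by small amounts and in few genes by large amounts. In limma, with the replicate number as a block and Benjamini-Hochberg adjustment, 1414 of 19920 genes had an adjusted p under 0.05 (7.1%), 866 of them higher in CIR-3 (4.35%) and 548 lower (2.75%). These are the genes said below to have been called, or to have risen or fallen. The median size of a called difference was 0.22, and 1249 of the 1414 were smaller than 0.5. A difference of at least 1 was reached by 57 called genes (0.286% of all genes), 42 higher and 15 lower, and a difference of at least 2 by 13 higher and 3 lower. Of the 57, 54 had no overlap between the 6 arrays of each line, against 2.66% of all genes, and in all 57 the 6 number-matched differences had 1 sign, against 15.3% of all genes. The 57 were chosen for their size, so both shares are a description. Next to the limit of 1, Tgm2 lay inside with -1.01 and Ccdc38 outside with 0.99. At the limit of the test, Blzf1 lay inside (0.15, adjusted p = 0.0499) and Homez outside (-0.17, adjusted p = 0.0502).

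The count of called genes rests on the block and their split by direction on the scaling of the arrays, whereas the large differences rest on neither. Without the block 536 genes were called, 341 higher and 195 lower, and all 536 were among the 1414. The count was 933 without CIR-1 array 2. With each array centred on its median, 1350 of 1577 called genes were higher (85.6%, against 61.2% in the deposited scaling) and 227 were lower. After quantile normalization 710 of 1319 were higher (53.8%) and 609 were lower. Centring moved the median difference of all genes from -0.02 to 0.03. All 57 genes with a difference of at least 1 were called again in each of these settings.

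The largest rise was that of Gm773 (probe set 10604674), a predicted gene. In CIR-1 its lowest, median and highest array read 4.69, 4.83 and 5.00, and in CIR-3 they read 9.65, 9.82 and 10.42. The gene was below background level in all 6 CIR-1 arrays and well above it in all 6 CIR-3 arrays. The difference was 5.04 (SE 0.0942, adjusted p = 2.19e-16), at least 33-fold. In the chromosome order of protein-coding genes in RefSeq (assembly GRCm38.p6), Gm773 lies on the X chromosome with 1 other gene between it and 3830403N18Rik (probe set 10599680), which fell by 1.10 (SE 0.114, adjusted p = 4.62e-06).

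Clec12a (probe set 10542164), an inhibitory C-type lectin receptor of myeloid cells, rose by 3.85 (SE 0.213, adjusted p = 1.3e-09), at least 14.4-fold. Its CIR-1 arrays lay between 5.98 and 6.48 with a median of 6.13, and its CIR-3 arrays between 9.20 and 10.46 with a median of 10.36. The lines did not overlap, and within CIR-3 the arrays numbered 5 and 6 (9.20 and 9.30) stood about 1 unit below the other four. Clec5a, an activating lectin receptor of monocytes and neutrophils, rose by 1.07 (SE 0.17). These were the 2 members called among 20 measured myeloid C-type lectins, and the count was also 2 without the block and under 2 other scalings.

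Tdrd9 (probe set 10398759), a helicase of the piRNA pathway that silences transposons in germ cells, had CIR-1 arrays of 7.41 to 7.65 (median 7.496) and CIR-3 arrays of 10.81 to 11.04 (median 10.97). All CIR-3 arrays were thus far above all CIR-1 arrays, and the spread inside a line was small beside the gap. The rise was 3.44 (SE 0.0851, 10.8-fold, adjusted p = 1.49e-14). M1ap, a meiosis gene, rose by 1.50 (SE 0.131). Xlr, founder of the lymphocyte-regulated family on the X chromosome, rose by 1.39 (SE 0.124), from a level below background in CIR-1 (median 5.89). The list of germline genes and X-linked lymphocyte-regulated genes had these 3 of 22 members higher and 1 lower, which was the germline gene Piwil1 at -0.15 (SE 0.0345). The call of Piwil1 ended in 6 of 24 alternatives, among them no block and the exon-level values (-0.10, adjusted p = 0.142).

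Anxa3 (probe set 10523451), a calcium-dependent phospholipid-binding protein, was measured at 7.96 to 8.21 in CIR-1 (median 8.12) and at 11.14 to 11.38 in CIR-3 (median 11.25). It rose by 3.15 (SE 0.108, 8.9-fold, adjusted p = 1.23e-12), with no overlap. Lgals3 (probe set 10414360), the galactose-binding lectin galectin-3, was among the brightest of the genes that rose. Its CIR-1 arrays read 10.12 to 10.66 (median 10.43) and its CIR-3 arrays 12.15 to 12.44 (median 12.23). The rise of 1.90 (SE 0.0684, 3.74-fold, adjusted p = 2.62e-12) separated the lines in every array.

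Single genes of granule proteins rose, while few members of the lists of such genes were called (below). Mpo (probe set 10380174), the peroxidase of neutrophil granules, read 8.56 to 9.19 in CIR-1 (median 8.86) and 11.33 to 11.56 in CIR-3 (median 11.39). The lines did not overlap, and the rise was 2.53 (SE 0.0989, 5.79-fold, adjusted p = 8.5e-12). Gzmb (probe set 10420308), the cytotoxic protease granzyme B, was the brightest of these at 11.89 to 12.14 in CIR-1 (median 11.97) and 13.66 to 13.97 in CIR-3 (median 13.81). It rose by 1.82 (SE 0.165, 3.54-fold, adjusted p = 8.86e-07). Epx, the eosinophil peroxidase, rose by 1.47 (SE 0.189) and Cfp, the complement factor properdin stored in granules, by 1.02 (SE 0.0519). Padi2, a peptidylarginine deiminase, rose by 1.35 (SE 0.06).

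The promoter windows of Clec12a, Gzmb and Mpo are shown because these 3 genes of myeloid or cytotoxic cells were among those that rose and because the transcription factor Runx1 fell (below). The windows are RefSeq promoters of assembly GRCm38.p6, 250 bases before to 50 after the start, in the direction of the gene. They are chr6:129349994-129350293 on the + strand for Clec12a, chr14:56262285-56262584 on the - strand for Gzmb and chr11:87793534-87793833 on the + strand for Mpo. Both strands were searched for 3 short motifs, and capitals mark matches, none of which overlaps another. The first motif was the RUNX core TGTGGT. For GATA factors the letters searched were AGATAA. The AP-1 form was TGANTCA, where N is any base.
Clec12a: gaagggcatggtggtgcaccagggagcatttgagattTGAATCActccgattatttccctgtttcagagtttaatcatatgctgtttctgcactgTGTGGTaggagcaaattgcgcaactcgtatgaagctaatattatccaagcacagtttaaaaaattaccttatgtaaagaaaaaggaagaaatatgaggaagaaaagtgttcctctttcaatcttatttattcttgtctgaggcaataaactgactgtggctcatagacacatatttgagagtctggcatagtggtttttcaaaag
Gzmb: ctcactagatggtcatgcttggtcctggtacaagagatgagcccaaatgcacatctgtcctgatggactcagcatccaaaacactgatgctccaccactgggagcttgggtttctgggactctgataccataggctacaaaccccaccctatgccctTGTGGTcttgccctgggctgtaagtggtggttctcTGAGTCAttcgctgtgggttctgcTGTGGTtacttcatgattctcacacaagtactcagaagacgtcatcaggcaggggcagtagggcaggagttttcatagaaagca
Mpo: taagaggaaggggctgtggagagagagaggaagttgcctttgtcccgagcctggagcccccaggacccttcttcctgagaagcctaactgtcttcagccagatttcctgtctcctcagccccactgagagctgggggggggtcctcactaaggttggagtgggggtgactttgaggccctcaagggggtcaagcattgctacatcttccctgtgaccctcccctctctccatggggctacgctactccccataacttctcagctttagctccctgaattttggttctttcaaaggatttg

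Clec12a held 1 RUNX and 1 AP-1 match, Gzmb 2 RUNX matches and 1 AP-1 match, and the Mpo window none of the 3 forms. Promoters were found in RefSeq for 50 of the 57 genes with a difference of at least 1. The RUNX form was present in 11 of 39 genes that were higher in CIR-3 (28.2%) and in 3 of 11 that were lower (27.3%), against 18.9% of 27025 genes with promoters. The GATA form was present in 4 of 39 and 3 of 11, against 12.7%, and the AP-1 form in 5 of 39 and 2 of 11, against 8.97%. These are counts of letters in a window and carry no test. A link between the fall of Runx1 and these genes was not tested.

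Ptgs2 (probe set 10350516), the inducible cyclooxygenase that starts prostaglandin synthesis, differed from the other leading genes in its spread. In CIR-1 its arrays lay between 6.67 and 7.27, with a median of 6.999. In CIR-3 the unstimulated arrays 1, 3 and 5 read 7.12, 8.23 and 10.05, and the GFP-PFC arrays 2, 4 and 6 read 8.57, 10.21 and 11.50. CIR-3 array 1 lay inside the CIR-1 range and the other 5 lay above it. The mean difference was 2.30 (SE 0.351, adjusted p = 0.000353), made of 1.49 in unstimulated cells, where it was not called (adjusted p = 0.14), and 3.10 with GFP-PFC (adjusted p = 0.00129).

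Il2ra (probe set 10469278), the alpha chain of the interleukin-2 receptor, rose by 2.07 (SE 0.23, 4.19-fold, adjusted p = 1.14e-05). CIR-1 arrays 1 to 4 read between 8.59 and 9.30, whereas arrays 5 and 6 read 11.23 and 11.38. CIR-3 arrays 1 to 4 read between 10.89 and 11.66, and arrays 5 and 6 read 12.89 and 13.03. The ranges of the lines overlapped, but CIR-3 was higher within each of the 6 numbers. Adam8, a membrane metalloproteinase of leukocytes, followed the same numbers with a rise of 1.76 (SE 0.165).

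**Figure D1:**
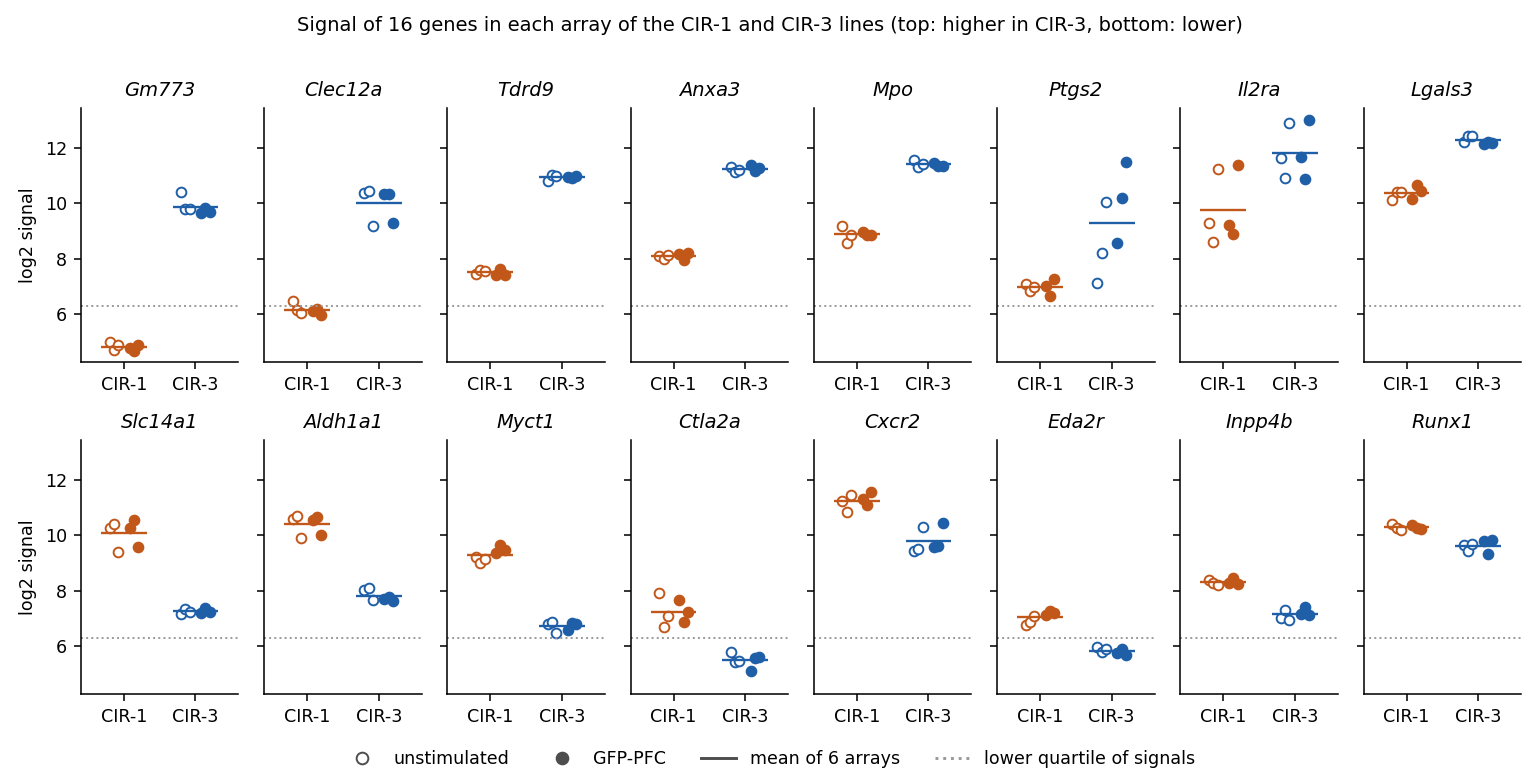
Log2 signal of 16 genes in each array (open, unstimulated; filled, GFP-PFC; 3 arrays each) of the CIR-1 and CIR-3 lines, with the mean of 6 arrays as a bar and the level of 6.283 dotted. The lines are separated in every gene shown except Ptgs2 and Il2ra, where 1 or more CIR-3 arrays fall inside the CIR-1 range.

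Enzymes of aldehyde and lipid metabolism moved in both directions. Akr1b8 (probe set 10537146), an aldo-keto reductase, rose by 2.36 (SE 0.107, 5.13-fold, adjusted p = 6.95e-11), from 6.78 to 7.64 in CIR-1 (median 7.38) to 9.41 to 10.02 in CIR-3 (median 9.61). Far2, a fatty acyl-CoA reductase that makes fatty alcohols, rose by 2.24 (SE 0.0688) and Aoc1, the diamine oxidase that degrades histamine, by 2.22 (SE 0.188). Atp8b4, a P4-type ATPase of the phospholipid flippase family, rose by 2.17 (SE 0.0991). In the opposite direction, Aldh1a1 (probe set 10461979), a retinal dehydrogenase, fell by 2.59 (SE 0.151, adjusted p = 2.7e-09). Its arrays read 9.90 to 10.70 in CIR-1 (median 10.58) and 7.64 to 8.09 in CIR-3 (median 7.75), with no overlap.

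Further rises were those of secreted and signalling proteins. Wfikkn2, a secreted inhibitor with protease-inhibitor domains, rose by 2.55 (SE 0.048, adjusted p = 2.19e-16) and Wfdc15a, of the whey acidic protein family, by 2.30 (SE 0.0849). Csf1, the macrophage growth factor, rose by 1.74 (SE 0.121, adjusted p = 3.28e-08), with CIR-1 arrays of 9.11 to 9.78 and CIR-3 arrays of 10.73 to 11.80. Fgf15, a secreted fibroblast growth factor, rose by 1.33 (SE 0.0974). Ptpn22, a phosphatase that dampens antigen receptor signalling, rose by 1.69 (SE 0.0717), Dock10 by 1.65 (SE 0.111), and Scin, an actin-severing protein, by 1.54 (SE 0.139).

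The largest fall was that of Slc14a1 (probe set 10459866), a urea transporter of erythroid and kidney cells. Its CIR-1 arrays lay between 9.40 and 10.57 (median 10.28) and its CIR-3 arrays between 7.18 and 7.37 (median 7.24). CIR-1 arrays 5 and 6 (9.40 and 9.57) were the lowest of that line and still far above CIR-3. The fall was 2.83 on the log2 scale (difference -2.83, SE 0.129, adjusted p = 7.5e-11), a 7.09-fold difference of signals. Myct1 (probe set 10367591), a target gene of Myc, followed with a difference of -2.58 (SE 0.0826, adjusted p = 6.24e-13). Its arrays read 8.996 to 9.66 in CIR-1 and 6.47 to 6.86 in CIR-3, again without overlap.

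Ctla2a, an inhibitor of cysteine proteases, fell from a CIR-1 median of 7.16 to a CIR-3 median of 5.51, below background level, by at least 3.35-fold (difference -1.75, SE 0.177). Ctsj, a cysteine protease of the cathepsin family, had a difference of -1.56 (SE 0.137). Tgm2, a protein-crosslinking transglutaminase, had one of -1.01 (SE 0.0664).

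Receptors and their adaptors were among the genes that fell. Cxcr2 (probe set 10347291), the chemokine receptor that guides neutrophils, read 10.85 to 11.57 in CIR-1 (median 11.27) and 9.42 to 10.44 in CIR-3 (median 9.60), a difference of -1.45 (SE 0.132, adjusted p = 9.54e-07). The lines did not overlap, although the highest CIR-3 array came within 0.5 of the lowest CIR-1 array. Mc5r, a melanocortin receptor and one of the brightest genes of CIR-1 here (median 12.71), had a difference of -1.17 (SE 0.145). Eda2r, a receptor of the TNF family and a p53 target, had one of -1.21 (SE 0.0951) with CIR-3 below background level. Sla2, an adaptor that dampens antigen receptor signalling, had a difference of -1.10 (SE 0.126). Inpp4b, a phosphatase of the lipid messengers made by PI3-kinase, had a difference of -1.14 (SE 0.0724, adjusted p = 8.59e-09).

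The levels in the parental and CIR-2 lines show on which side the difference lies. These 2 lines served in none of the differences above, although they share the estimate of the spread. Positions were taken from the means without a margin. A mean just beyond that of 1 line therefore counts as below or above both, as for Gm773 in parental cells. For the 42 genes higher in CIR-3, the parental mean lay below both lines in 11, above both in 7, between them nearer to CIR-1 in 13 and between them nearer to CIR-3 in 11. For the 15 genes lower in CIR-3, it lay below both in 6, between them nearer to CIR-3 in 5 and between them nearer to CIR-1 in 4. Among the 42, CIR-2 lay between the lines nearer to CIR-1 in 22, nearer to CIR-3 in 5, below both in 9 and above both in 6. Among the 15, it lay between them nearer to CIR-1 in 8, nearer to CIR-3 in 3 and above both in 4. Neither the parental level nor the CIR-2 level thus matched 1 of the 2 lines throughout, although CIR-2 lay more often on the CIR-1 side.

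Some differences set CIR-3 apart from the other lines, and others set CIR-1 apart. The means of Gm773 were 4.65 in parental cells and 4.92 in CIR-2, both at the level of CIR-1. For Tdrd9 they were 7.16 and 7.71, for Wfikkn2 7.08 and 7.17, and for Ptgs2 6.75 and 6.77, again at or near the CIR-1 level. Far2 was the opposite case, with 12.71 in parental cells and 12.95 in CIR-2, above CIR-3 (median 12.41), and CIR-1 alone was low (median 10.23). Clec12a (9.29 in parental cells), Mpo (10.43), Gzmb (13.28) and Scin (12.79) were also high in parental cells, above CIR-1. CIR-2 lay between the lines for Clec12a (7.79), at the CIR-1 level for Mpo (8.89), and below CIR-1 for Gzmb (11.42) and Scin (10.5). Against parental cells, Gzmb had a difference of 0.53 in CIR-3 and of -1.29 in CIR-1, and Mpo had 0.98 and -1.55. Slc14a1 was as low in parental cells (7.16) as in CIR-3, with CIR-1 and CIR-2 (9.0) above, and Inpp4b was low in CIR-3 alone (8.29 in parental cells and 8.35 in CIR-2).

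**Figure D2:**
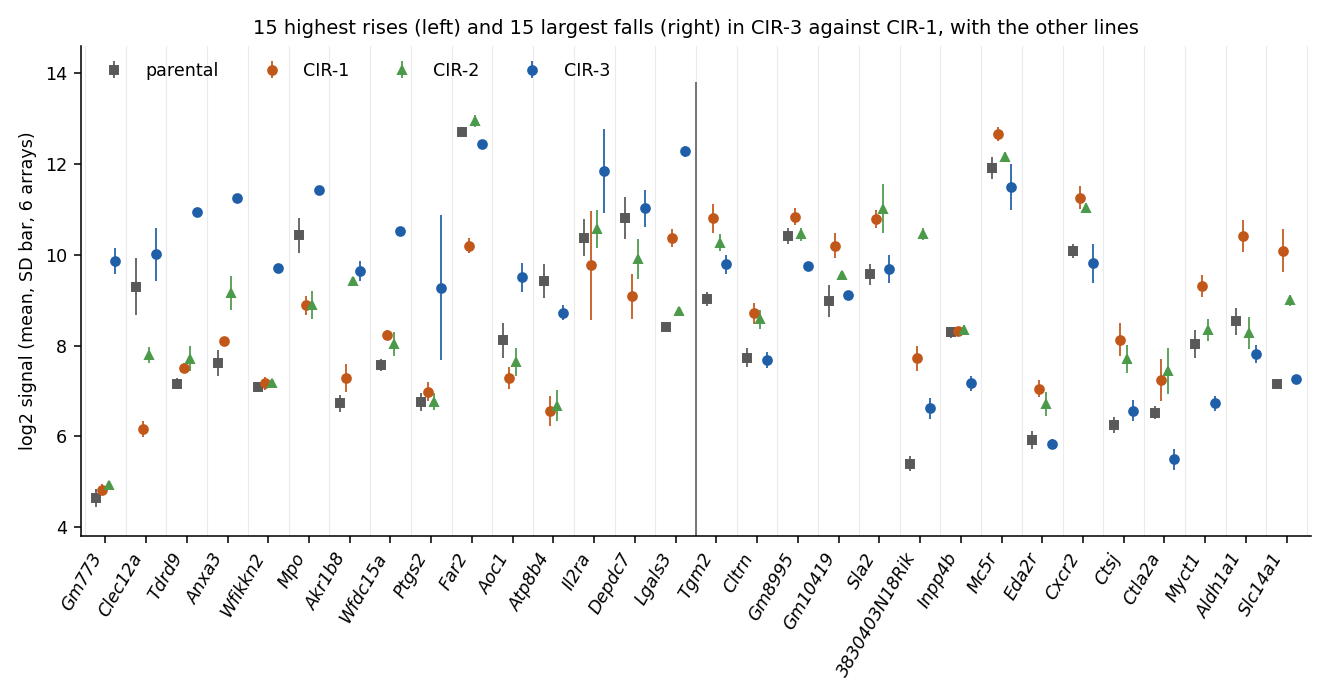
Mean log2 signal (SD as bar, 6 arrays per line, unstimulated and GFP-PFC together) of the 15 highest rises and the 15 largest falls in CIR-3 against CIR-1, shown for all 4 lines. Parental and CIR-2 cells sit with CIR-1 for Gm773, Tdrd9 and Wfikkn2, and with CIR-3 for Far2.

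The difference between the lines was much the same with and without GFP-PFC. In unstimulated cells 532 genes were called (2.67%), 329 higher and 203 lower, and with GFP-PFC 428 were called (2.15%), 258 higher and 170 lower. These 2 contrasts share no array but share the estimate of the spread. They had 339 genes in common, 63.7% of the unstimulated and 79.2% of the GFP-PFC list, all 339 with the same sign. When each state was fitted on its own 12 arrays, an alternative added after the data were seen, 310 and 382 genes were called and 236 were shared, all with the same sign (76.1% and 61.8% of the lists). Of all genes, 73% had the same sign in both of these fits.

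The change of the line difference with GFP-PFC was tested directly. In limma 0 genes passed, 485 had an unadjusted p under 0.05 (2.43%), and the smallest adjusted p was 1. For Gm773 the difference was 5.15 unstimulated and 4.93 with GFP-PFC, for Clec12a 3.79 and 3.91, for Mpo 2.56 and 2.50, and for Slc14a1 -2.77 and -2.88. The gene with the widest gap among the leading genes was Ptgs2, whose change of 1.61 (SE 0.703) had an unadjusted p of 0.0352. A count of 0 does not show that the differences are equal, since 3 arrays per group limit the precision. The counts for a single state rested on single arrays. The unstimulated count was 296 and 338 without CIR-1 arrays 3 and 5, and 293 and 347 without CIR-3 arrays 3 and 5. The GFP-PFC count was 258 without CIR-1 array 2 and 277 without CIR-3 array 6.

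**Figure D3:**
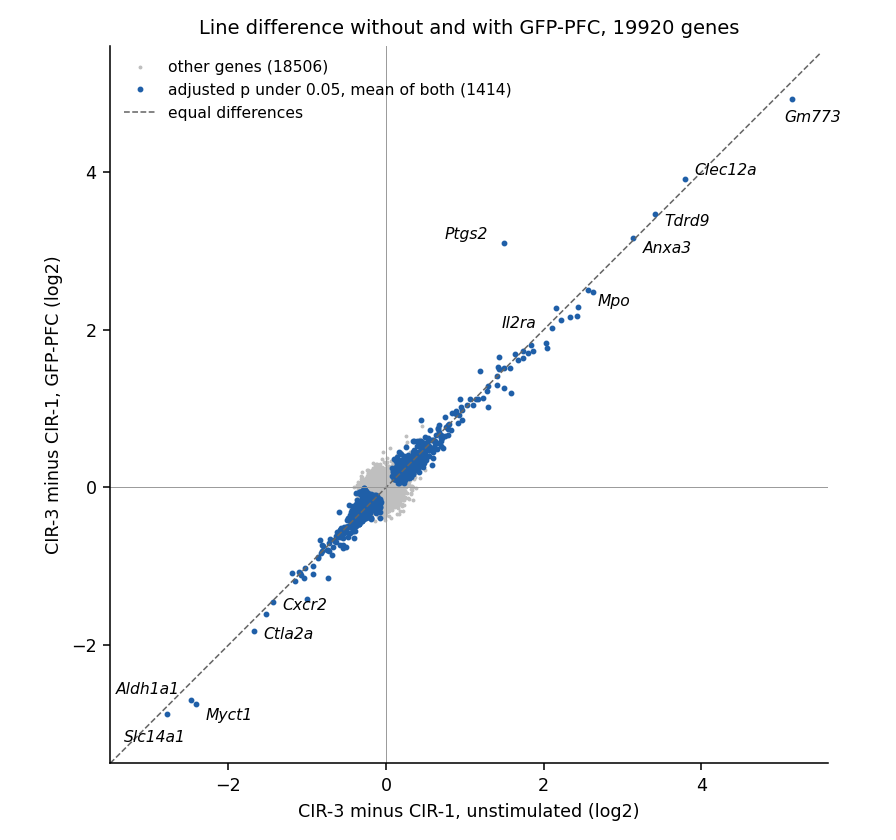
Difference between CIR-3 and CIR-1 (log2) in unstimulated cells (horizontal) and with GFP-PFC (vertical) for 19920 genes, 3 arrays per line and state, with the 1414 called genes in blue and a dashed line of equality. Called genes lie along the line on both sides of 0, and Ptgs2 (1.49 and 3.10) lies farthest from it.

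Gene lists place these differences among other genes of the same roles. The 46 lists were compiled with earlier results of these data known, and they are described by counts, to be read against 7.1% of all genes (4.35% higher, 2.75% lower) and a median difference of -0.02. After the counts of a list, 3 pairs in brackets give the numbers called higher/lower without the block, with arrays centred on their medians and after quantile normalization, in this order. Many differences of list members are under 0.5, a size that accounts for most calls.

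**Figure D4:**
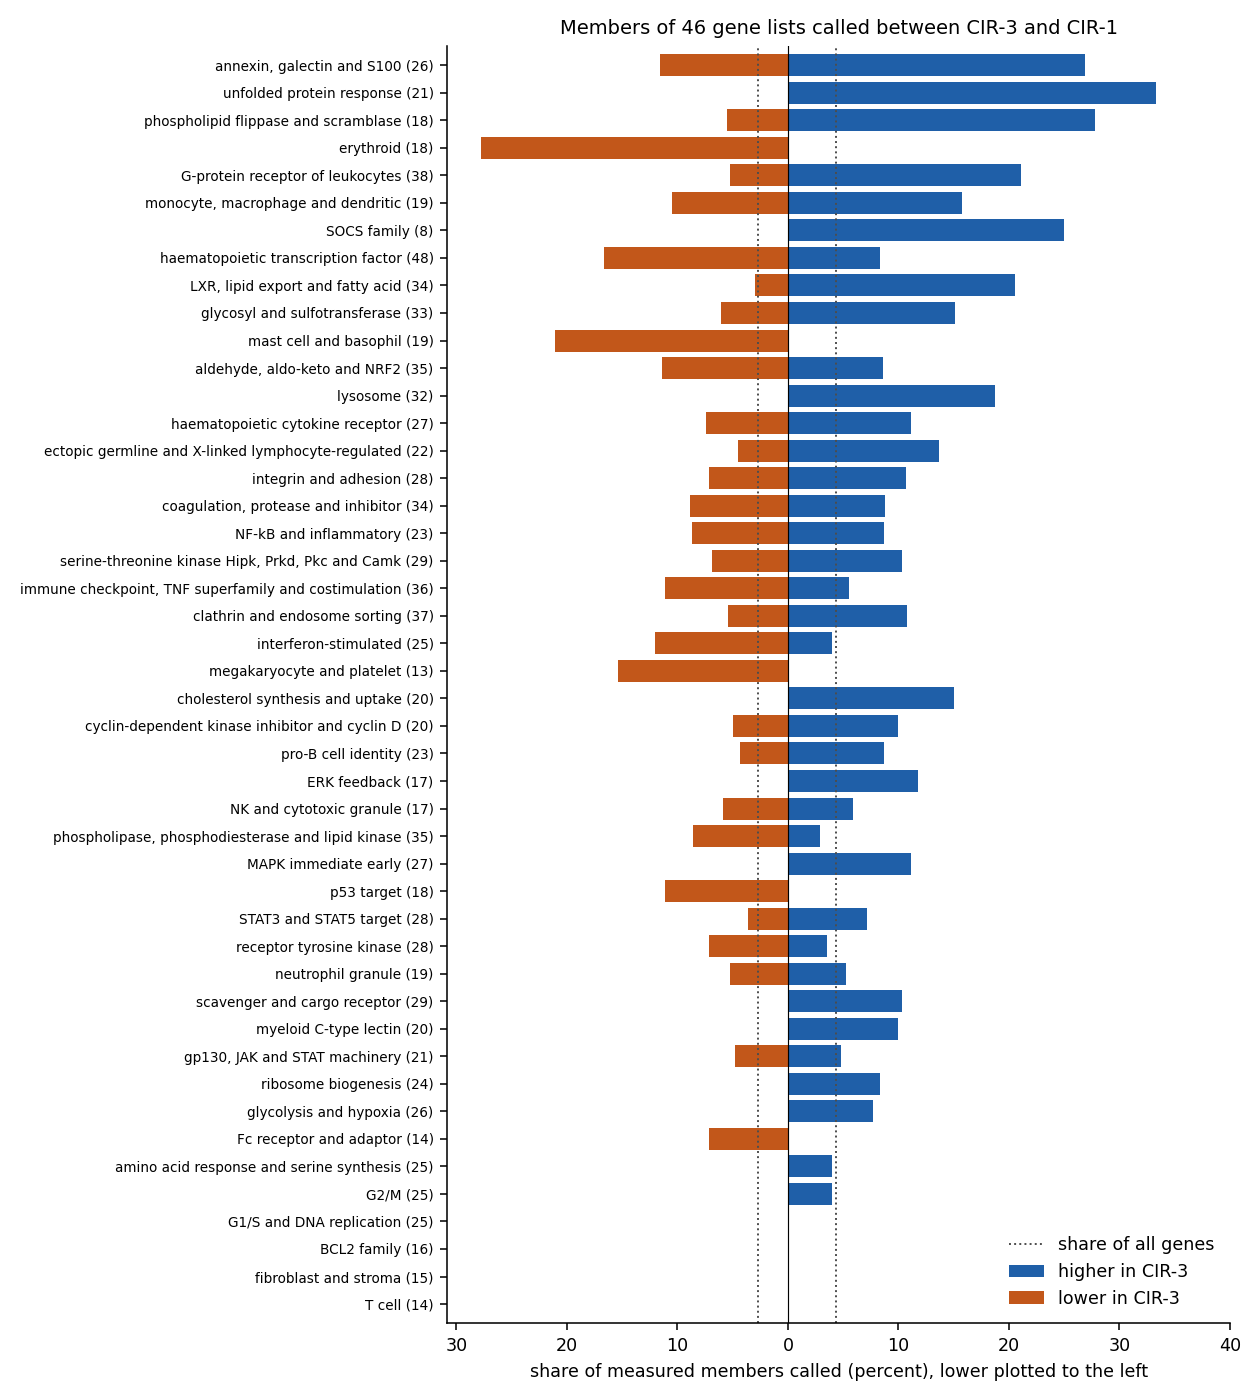
Share of the measured members (number in brackets) of 46 gene lists called higher (right) or lower (left) in CIR-3, in percent, with the shares of all genes dotted. The unfolded protein response list has calls on the higher side only (7 of 21), the erythroid list on the lower side only (5 of 18).

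Among receptors, the G-protein receptors of leukocytes had 8 of 38 members higher and 2 lower (5/1, 8/2, 7/2), with a median of -0.02. Gpr34, a receptor for lysophosphatidylserine, rose by 1.18 (SE 0.106, at least 2.27-fold) and Gpr84, a receptor for medium-chain fatty acids, by 0.67 (SE 0.0897), whereas Cxcr2 fell. Of 27 haematopoietic cytokine receptors, 3 were higher and 2 lower (1/0, 4/1, 3/2), with Il2ra the only difference above 0.5 and Csf2ra, the alpha chain of the GM-CSF receptor, at 0.33 (SE 0.0481). Of 28 receptor tyrosine kinases, 1 was higher, namely the VEGF receptor Flt1 by 0.70 (SE 0.0751), and 2 were lower (1/1, 1/1, 1/1), among them the endothelial receptor Tie1 (-0.66, SE 0.0546). Integrins and adhesion molecules had 3 of 28 higher and 2 lower (1/1, 6/1, 3/2). Among the 28 measured, Itga6, a laminin-binding integrin chain, had the largest difference (-0.60, SE 0.0486). Itgb7, an integrin chain of lymphocyte homing, rose by 0.43 (SE 0.079). Selp, the adhesion molecule P-selectin, is on this list but had no gene-level value here. At exon level 16 of its 17 probe sets were higher in CIR-3 by at least 1, up to 3.48. Of 14 Fc receptor genes 1 was called (0/1, 0/1, 0/1), the high-affinity IgG receptor Fcgr1 (-0.67, SE 0.0957).

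In the gp130 pathway itself no difference reached 0.5. Of 21 genes of the gp130, JAK and STAT machinery 1 was higher and 1 lower (0/1, 2/1, 1/1), namely the phosphatase Ptpn6 (0.26, SE 0.0429) and the transcription factor Stat4 (-0.49, SE 0.0781, CIR-3 median 6.30), of which Ptpn6 was not called without the block. The mouse gp130 gene Il6st read 6.27 to 6.39 in CIR-1 and 6.22 to 6.39 in CIR-3, about the level of 6.283, and its difference was -0.01 (SE 0.0402, adjusted p = 0.938). The labels do not say whether this probe set matches the transfected gp130. The interleukin-6 receptor chain Il6ra differed by -0.10 (SE 0.0456, adjusted p = 0.183).

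All 8 SOCS family members were measured. Socs3, the feedback inhibitor of gp130, read 9.41 to 9.98 in CIR-1 (median 9.82) and 9.10 to 10.54 in CIR-3 (median 9.67), with CIR-1 inside the wider CIR-3 range. Its difference was -0.03 (SE 0.113, adjusted p = 0.885). Socs6 (0.20, SE 0.0503) and Socs7 (0.14, SE 0.0409) passed narrowly (list 0/0, 3/0, 1/0). At exon level Socs6 differed by 0.01 (adjusted p = 0.921) with 3 of its 6 probe sets higher, and Socs7 by 0.11 (adjusted p = 0.278), so neither was called there. Cish (0.18), Socs2 (0.13), Socs5 (0.06), Socs4 (-0.04) and Socs1 (-0.08) did not pass. Of 28 STAT3 and STAT5 targets 2 were higher and 1 lower (1/0, 6/0, 2/3), and the largest difference was that of Id2, an inhibitor of helix-loop-helix factors, with a rise of 0.71 (SE 0.0966, adjusted p = 0.000111).

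Signalling genes outside this pathway included Hipk2, a nuclear kinase of stress responses, with -0.88 (SE 0.0769, adjusted p = 5.61e-07), while its list of serine-threonine kinases had 3 of 29 higher and 2 lower (2/1, 3/1, 3/2). Of 23 NF-kB and inflammatory genes 2 were higher and 2 lower (1/1, 2/1, 2/2), and Ptgs2 was the only one with a difference above 0.5. MAPK immediate early genes had 3 of 27 higher (1/0, 6/0, 4/0) and ERK feedback genes 2 of 17 (0/0, 2/0, 1/0). The phospholipase, phosphodiesterase and lipid kinase list had 1 of 35 higher and 3 lower (1/1, 1/1, 1/3), and beside Inpp4b it held the PI3-kinase subunit Pik3r5 at 0.42 (SE 0.0749).

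Of 48 transcription factors of blood cells, 4 were higher and 8 lower (1/5, 8/5, 4/8), with a median of -0.05, a balance that turned when arrays were centred. Runx1 (probe set 10441003), a master factor of blood stem cells and myeloid genes, read 10.21 to 10.43 in CIR-1 (median 10.27) and 9.31 to 9.85 in CIR-3 (median 9.67). The lines did not overlap, and the difference was -0.68 (SE 0.0684, adjusted p = 3.43e-06). Lmo2, the bridging protein of the GATA and TAL1 complex, had -0.77 (SE 0.0607, adjusted p = 1.62e-07), from 11.52 to 12.01 in CIR-1 down to 10.73 to 11.17 in CIR-3. Parental cells were at 10.68 for Runx1, the CIR-1 side, and at 10.82 for Lmo2, the CIR-3 side.

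The erythroid list had 5 of 18 members lower and 0 higher (0/3, 0/4, 0/5), with a median of -0.11. Beside Slc14a1 these were Gata1 (-0.31, SE 0.0468), the erythroid factor Klf1 (-0.37, SE 0.0588), the GATA cofactor Zfpm1 (-0.23, SE 0.0407, not called without the block) and the membrane protein Epb42. Gata1 read 10.97 to 11.21 in CIR-1 and 10.71 to 10.88 in CIR-3, without overlap. The mean over the list ran from 8.59 to 8.75 in CIR-1 arrays and from 8.34 to 8.41 in CIR-3 arrays. Megakaryocyte and platelet genes had 2 of 13 lower (0/1, 1/1, 0/3), among them Nfe2 (-0.32, SE 0.0394), a factor of platelet formation. The 13 leave out Selp, a listed member without a gene-level value. It was higher in CIR-3 by at least 1 at 16 of 17 exon-level probe sets. In bulk RNA a smaller share of cells that express a gene and less of its RNA per cell cannot be told apart.

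Markers of other cell types follow. Neutrophil granule genes had 1 of 19 higher, Mpo, and 1 lower, the protease Ctsg at -0.31 (1/1, 3/1, 1/0). The call of Ctsg ended in 6 of 24 alternatives. The list means were 7.43 to 7.54 in CIR-1 and 7.54 to 7.61 in CIR-3, and 13 of the 19 lay above the level of 6.283 in at least 1 line. Monocyte, macrophage and dendritic genes had 3 of 19 higher and 2 lower (1/2, 4/2, 3/2). Lgals3 was higher there, whereas the lysozyme gene Lyz2 (-0.66, SE 0.0571) and Fcgr1 were lower. Mast cell and basophil genes had 4 of 19 lower and 0 higher (0/1, 0/1, 0/1), the largest being the basophil protease Prss34 (-0.54, SE 0.0964). NK and cytotoxic granule genes had 1 of 17 higher, Gzmb, and 1 lower, the granule protein Nkg7 at -0.30 (1/1, 2/0, 2/0). The 14 T cell genes (0/0, 0/0, 0/0) and 15 fibroblast and stroma genes (0/0, 1/0, 0/0) had 0 calls, and the pro-B list had 2 of 23 higher and 1 lower (1/0, 2/1, 2/2), with list means of 7.06 to 7.23 in CIR-1 and 7.07 to 7.16 in CIR-3. The part of such cells in the results above was not tested.

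Effector lists held several of the leading genes. Annexins, galectins and S100 proteins had 7 of 26 members higher and 3 lower (5/2, 8/2, 6/4). Beside Anxa3 and Lgals3, Anxa1, an inhibitor of inflammation, rose by 0.41 (SE 0.0923), whereas galectin-9 (Lgals9) fell from 11.21 to 11.68 in CIR-1 to 10.47 to 10.78 in CIR-3 (difference -0.77, SE 0.117, adjusted p = 0.00035). Glycosyl and sulfotransferases had 5 of 33 higher and 2 lower (4/0, 7/0, 5/2). Fut7, a fucosyltransferase that makes selectin ligands, was highest (0.69, SE 0.163), but its call ended without CIR-1 array 5 or CIR-3 array 3 or 4. It was followed by the sialyltransferase St8sia4 (0.68, SE 0.0491), which makes polysialic acid, and B3gnt5 (0.61, SE 0.0707), which starts lacto-series glycolipids. Immune checkpoint and TNF family genes had 2 of 36 higher and 4 lower (2/2, 3/3, 2/5). Havcr2, the inhibitory receptor TIM-3, was bright and rose by 0.46 (SE 0.0847), and Tnfsf4, the costimulatory ligand OX40L, had -0.53 (SE 0.0974). Of 18 p53 targets 2 were lower (0/2, 0/2, 0/3), the larger being Eda2r.

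Of 21 unfolded protein response genes 7 were higher, 0 were lower and the other 14 did not pass (4/0, 10/0, 5/0), with a median of 0.11. Ern1, the stress sensor that splices Xbp1 RNA, read 9.67 to 9.94 in CIR-1 (median 9.87) and 9.97 to 10.73 in CIR-3 (median 10.22). It rose by 0.47 (SE 0.0857, adjusted p = 0.00198). The protein disulfide isomerase Pdia4 (0.29, SE 0.0416) and Edem1 (0.28, SE 0.039), which directs misfolded glycoproteins to degradation, rose by less, and neither overlapped between the lines.

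Of genes of lipid handling most did not pass. The LXR, lipid export and fatty acid list had 7 of 34 higher and 1 lower (4/0, 8/0, 6/0), with Far2 first and the lipid droplet protein Plin3 at 0.37 (SE 0.0577). Phospholipid flippases and scramblases had 5 of 18 higher and 1 lower (1/0, 6/0, 6/1), and only Atp8b4 was called without the block. Of 20 cholesterol synthesis genes 3 were higher (0/0, 6/0, 1/1). Aldehyde, aldo-keto and NRF2 genes had 3 of 35 higher and 4 lower (2/2, 6/2, 4/3), a balance that turned under both other scalings, with Akr1b8 and the glutathione transferase Gstm1 (1.15, SE 0.141) on one side and Aldh1a1 and Aldh1a7 (-0.77, SE 0.0998) on the other.

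Endocytosis is the function named in the title of the series. Lysosomal genes had 6 of 32 higher and 0 lower (3/0, 9/0, 5/0), with a median of 0.06, led by the cathepsin Ctss (0.51, SE 0.0595), a protease of antigen processing. Clathrin and endosome sorting genes had 4 of 37 higher and 2 lower (1/0, 6/0, 1/2), a balance that turned after quantile normalization, led by the dynamin Dnm1 (0.46, SE 0.0472), which pinches off vesicles. Scavenger and cargo receptors had 3 of 29 higher and 0 lower (1/0, 4/0, 3/0). Among them Olr1, a receptor for oxidized lipoprotein, rose by 0.51 (SE 0.086, not called without the block).

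Among growth genes, those of G1/S and DNA replication had 0 of 25 called (0/0, 0/0, 0/1), with differences of -0.08 to 0.11. G2/M genes had 1 of 25 higher (0/0, 1/0, 0/0), ribosome biogenesis genes 2 of 24 (0/0, 4/0, 1/0) and BCL2 family genes 0 of 16 (0/0, 0/0, 0/1). Glycolysis and hypoxia genes had 2 of 26 higher (0/0, 5/0, 1/1) and amino acid response genes 1 of 25 (0/0, 3/0, 0/0). Interferon-stimulated genes had 1 of 25 higher and 3 lower (1/0, 1/0, 1/1). Of 20 cyclin D genes, kinase inhibitors and related cell cycle genes 2 were higher and 1 lower (0/0, 2/0, 0/1). Proteases, coagulation factors and their inhibitors had 3 of 34 higher and 3 lower (2/2, 4/3, 3/3), Adam8 and Tgm2 being the largest.

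The exon-level table holds the same arrays summarised for parts of genes, so it checks the probe sets and is no replicate. Of 1393 called genes with exon-level values 1390 had the same sign there and 992 were called there. Of 55 with a difference of at least 1 all 55 were called there in the same direction. All 35 probe sets of Tdrd9, all 14 of Mpo and of Anxa3, all 13 of Ptgs2 and all 12 of Slc14a1 shared the sign of the gene. Of the 14 probe sets of Far2, 13 did.

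In some genes only a stretch of the probe sets differed. A test for uneven differences among the probe sets of a gene (limma's diffSplice) was run on 18093 genes. It called 759, of which 318 were also called at gene level. Such a call does not mean that only a stretch differed. It was also given to genes that were higher nearly throughout, such as Tdrd9 (33 of 35 probe sets higher by at least 1) and Gm773 (7 of 7). The genes described next were chosen after their values were seen. Mtus2, a microtubule-associated protein, was not called at gene level (0.16, adjusted p = 0.215), yet the last 5 of its 18 probe sets, in the order of their numbers, were higher in CIR-3 by 2.71 to 4.89, and the first 13 differed by -0.22 to 0.21. The mean of the last 5 was 6.79 ± 0.18 in CIR-1 and 10.06 ± 0.17 in CIR-3 (SD, n = 6), with 6.76 in parental cells and 6.92 in CIR-2. CIR-3 was thus the only one of the 4 lines with a high signal over this stretch.

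Flt1 differed by 0.19 to 0.61 over its first 12 probe sets, whereas 15 of the next 19 were higher in CIR-3 by at least 1, up to 2.29, and the last 2 were not higher (-0.25 and -0.05). Over those 19 probe sets the mean was 10.42 in CIR-2 and 10.13 in CIR-3, against 8.70 for CIR-1 and 7.75 for the parental line. In RefSeq order Flt1 and Mtus2 lie on the same chromosome with 2 measured protein-coding genes between them, Pomp (0.03) and Slc46a3 (-0.12), neither of which was called. Ptprk, a receptor tyrosine phosphatase, differed by -0.21 to 0.69 over its first 14 probe sets and was lower in CIR-3 by at least 1 in 14 of the other 19 (median -1.56). Its mean over those 19 was 9.23 in CIR-1, 9.16 in CIR-2, 7.90 in CIR-3 and 7.30 in parental cells.

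**Figure D5:**
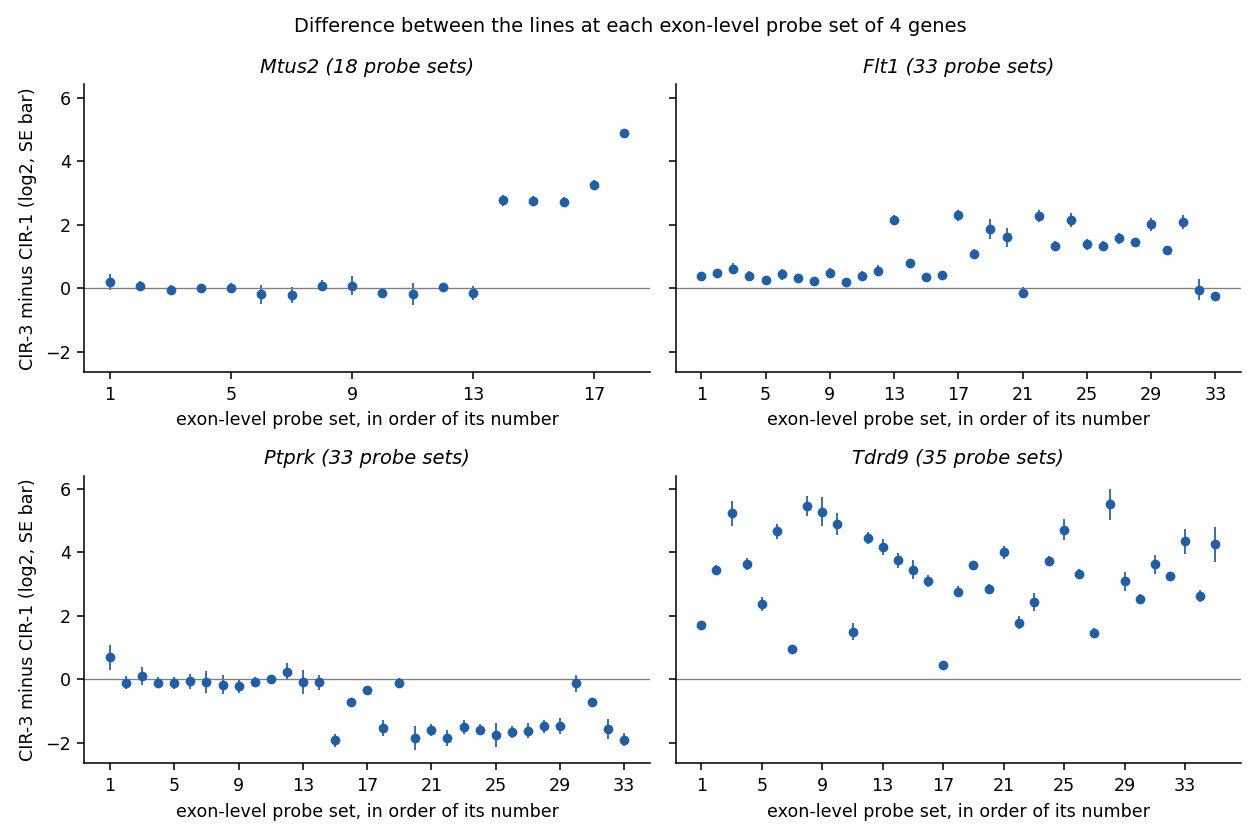
Difference between CIR-3 and CIR-1 (log2, SE as bar, 6 arrays per line) at each exon-level probe set of Mtus2, Flt1, Ptprk and Tdrd9, in the order of probe set numbers. The step is at the 14th of 18 probe sets in Mtus2 and at the 15th of 33 in Ptprk, while Tdrd9 is higher at all 35.

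Neighbouring genes were called together in part of the cases. Of 55 protein-coding genes with a difference of at least 1 that could be placed in RefSeq order among measured genes, 15 had a direct neighbour called in the same direction (27.3%), against 202 of all 1374 called genes placed (14.7%). The share of all 18565 placed genes with such a neighbour was not computed, so both shares are a description. The pairs included Depdc7 (1.93, SE 0.0627) with Tcp11l1 (0.78), Csf1 with Ahcyl1 (0.26), Gstm1 with Gstm4 (0.31), Aldh1a1 with Aldh1a7, and Cltrn (-1.02, SE 0.0833) with Siah1b (-0.49). The members of the Aldh1a and Gstm pairs are paralogues of similar sequence, so probes that match both cannot be told apart from a change of both.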

How the data were processed

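RNA of Ba/F3-gp130 cells was hybridised to 27 Affymetrix mouse arrays. The authors made the deposited log2 values with Affymetrix Expression Console, in its core-gene and core-exon modes, per the labels. Log base and normalization are not given in the sources used here. Values lay between 2.97 and 14.9, so they were read as log2 signal and the deposited scaling was kept. Of 35556 gene-level probe sets 21789 carried 1 gene symbol. Each gene was represented by its brightest probe set (mean of 27 arrays), which gave 19920 genes (23 symbols updated through RefSeq).

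A linear model (limma 3.58.1 in R 4.3.3) was fitted to the 24 arrays without Hyper-IL-6, with 1 mean per line and state and the replicate number as a block of 6 levels (12 residual degrees of freedom). The contrast was the mean of both states. The threshold was a Benjamini-Hochberg adjusted p of 0.05 over all genes, two-sided. The numbers were taken to pair the arrays because deviations from the group means of the 6 same-numbered CIR-3 and CIR-1 arrays were all positively correlated (r across genes 0.273 to 0.542, against -0.426 to 0.167 for other numbers of the same state and -0.361 to 0.409 across states, where adjacent numbers 1/2, 3/4 and 5/6 reached 0.187 to 0.409). A block of 3 such rounds was an alternative (1394 genes called). Centring on means of 3 arrays lowers correlations between different numbers of a state.

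The 15 largest rises and falls with all 6 numbers of 1 sign and up to 4 called members of each list could be named. So could the SOCS family, the gp130 chains, pro-B markers and the genes with the smallest p for the change with GFP-PFC. Further genes with a difference of at least 1 were named after their values were seen. The comparison, the lists and the rules were chosen with earlier results of these data known. Alternatives were the block, the arrays in the fit, the deposited level, probe sets, a filter on dim genes, array weights, scaling, the variance prior and leaving out each array.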

Additional observations from a re-analysis of the deposited data

Results flagged for a closer look

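Among the 162 genes that could be named, 2 had line differences of opposite signs without and with GFP-PFC. In both, every array pair of one state moved against every pair of the other. These were Vmn1r71, whose difference changed by -0.52 with GFP-PFC (SE 0.123), and Cyp2d40, whose difference changed by 0.42 (SE 0.107). Both could be named only because the p-values of their change were among the smallest, so the pattern is tied to that choice. The remaining genes were not searched for it. In limma both changes had an adjusted p of 1, and Vmn1r71 lay below background level in both lines.

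Probe sets without a single gene symbol were outside the comparison. Of 13767 such probe sets 53 were called (0.385%), 27 higher and 26 lower in CIR-3, 13 of them by at least 1. Probe set 10568731 was higher by 3.39 (SE 0.143), with means of 6.64 in CIR-1, 10.03 in CIR-3, 9.40 in parental cells and 9.19 in CIR-2. Probe set 10485580 was higher by 2.56 (SE 0.178), and probe set 10523717 also by 2.56 (SE 0.183). Among those lower, probe set 10415081 differed by -1.60 (SE 0.14), 10515755 by -1.05 (SE 0.0768) and 10604984 by -0.97 (SE 0.0668), and for all 3 the parental mean lay nearer to CIR-3 than to CIR-1.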

How the results depend on the processing

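Without the replicate block, 536 genes were called for the mean of both states, 201 in unstimulated cells and 187 with GFP-PFC, against 1414, 532 and 428 with the block that pairs equal numbers. With arrays numbered 3 to 6 only, 233 genes were called with GFP-PFC. The unstimulated arrays fitted alone, an alternative chosen after seeing the data, gave 310. Leaving out each of the 12 arrays in turn gave 933 to 1518 genes for the mean, 293 to 562 unstimulated and 258 to 444 with GFP-PFC. The other settings gave 947 to 1650 genes for the mean. The change of the line difference with GFP-PFC gave 0 genes in each alternative in which it was fitted. Of 140 called genes among the 162 that could be named, 75 stayed called in all 24 alternatives, and the 65 that lost the call in at least 1 are mostly list members with small differences; the 30 leading genes kept theirs. No named gene changed sign while called. The 3 arrays per group and signals near background limit the precision, and no detection call was used.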
